A study of Homo sapiens with 4 samples.

Results

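The HSP70 genes encode the HSP70 heat shock proteins and their larger relatives, and 10 of them, HSPA1A, HSPA1B, HSPA1L, HSPA2, HSPA4, HSPA4L, HSPA6, HSPA8, HSPA9 and HSPA13, were followed here among 61541 genes of an RNA-seq count table. The members were taken by name, by matching the Ensembl identifiers of the table to the gene symbols, and all 10 were found. The cells were MDA-MB-231, a triple-negative human breast cancer line with mesenchymal features. Cells made resistant by long-term passage in rising cadmium sulfate and kept at 10 µM cadmium (2 libraries, cadmium 1 and cadmium 2) were compared with parental cells passaged in ordinary medium (2 libraries, control 2 and control 3, as the columns are numbered). Both groups are therefore descendants of a single cell line, and the comparison is of adapted cells with parental cells, not of an acute exposure. The labels call the controls biological replicates and the cadmium libraries only replicates. They do not say whether the cadmium libraries came from separately selected cultures. The p-values therefore measure the spread between these libraries, and that of the cadmium pair may be technical.

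HSP70 proteins bind exposed hydrophobic stretches of other proteins and release them in a cycle driven by ATP, which helps new or damaged proteins fold and keeps them from aggregating. J-domain proteins bring clients and trigger ATP hydrolysis, and nucleotide exchange factors release ADP and the client. Some family members are made in all cells, whereas others are transcribed mainly after heat, proteotoxic agents or heavy metals such as cadmium, when heat shock factor HSF1 binds repeated GAA units (heat shock elements) in their promoters.

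Total assigned reads were between 51934729 and 61916007 per library, and all 10 members had reads in every library. The libraries differed in evenness. Over 12924 genes the log2 ratio of control 3 to control 2 had a robust SD of 0.56, against 0.16 for cadmium 2 to cadmium 1, so the controls differed more from each other than the cadmium libraries did. The line's own markers were high in all libraries: AXL, a receptor kinase, was at 301 to 337 reads per kilobase of gene model, scaled to the assigned reads of each library (RPKM), and the summed level of the 6 markers was 1046 and 1158 in control and 1142 and 1214 in cadmium libraries. Of the luminal markers, KRT19 had 16557 to 24261 reads and EPCAM 623 to 2547, while ESR1, which defines estrogen receptor-positive cells, had 2 to 20. Of the endothelial markers, PECAM1 had 169 reads in control 2 and 649 to 792 in the other libraries, and CDH5 had 2 to 16. Of the blood markers, PTPRC had 2 reads in control 2, 135 in control 3 and 37 and 43 in the cadmium libraries, and CD3E had 0 in every library. The summed level of the 7 luminal markers was 137 and 200 RPKM in control and 190 and 192 in cadmium libraries, that of the 4 blood markers 0.0483 and 0.346 against 0.157 and 0.165, and that of the 3 endothelial markers 0.404 and 2.02 against 1.75 and 1.59. For the luminal, blood and endothelial lists the largest gap was between the controls, and its part in the results was not tested.

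HSPA6 and HSPA1A were higher in cadmium-resistant cells, by 4.75-fold and 2.05-fold. The constitutive HSPA8, the mitochondrial HSPA9 and the exchange factor HSPA4 had overlapping libraries. By the DESeq2 Wald test with Benjamini-Hochberg adjustment over 19816 genes, 2 of 10 members passed an adjusted p of 0.1 in the upward direction and 0 in the downward direction, where 0.601% of all genes tested were called higher and 0.535% lower. All 10 members passed the filter on low counts. Both cadmium libraries lay above both controls for 5 members (20.3% of all genes tested) and below both for 1 (19.9%), and the libraries overlapped for 4. Among the 5, HSPA1A, HSPA1B and HSPA1L lie next to each other on chromosome 6, so the 5 are not separate loci. The median log2 fold change was 0.13 over the members and -0.02 over all genes tested. Without control 2 or control 3 the DESeq2 test called 3 members higher, while all genes called higher went from 119 to 1150 and 2678. Without cadmium 1 it called 1 member and 12 genes higher, and without cadmium 2 it called 0 members and 9 genes. The calls also depend on the tool. The edgeR quasi-likelihood test called 0 members and 0% of 19241 genes, with 3 members and 1506 genes at an unadjusted p under 0.05, and limma-voom called 0 members and 0 genes, with 1423 genes at an unadjusted p under 0.05. With 2 libraries against 2, an exact permutation test cannot give a two-sided p below 0.333. In bulk RNA, more cells with a transcript and more of it per cell cannot be told apart.

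**Figure D1:**
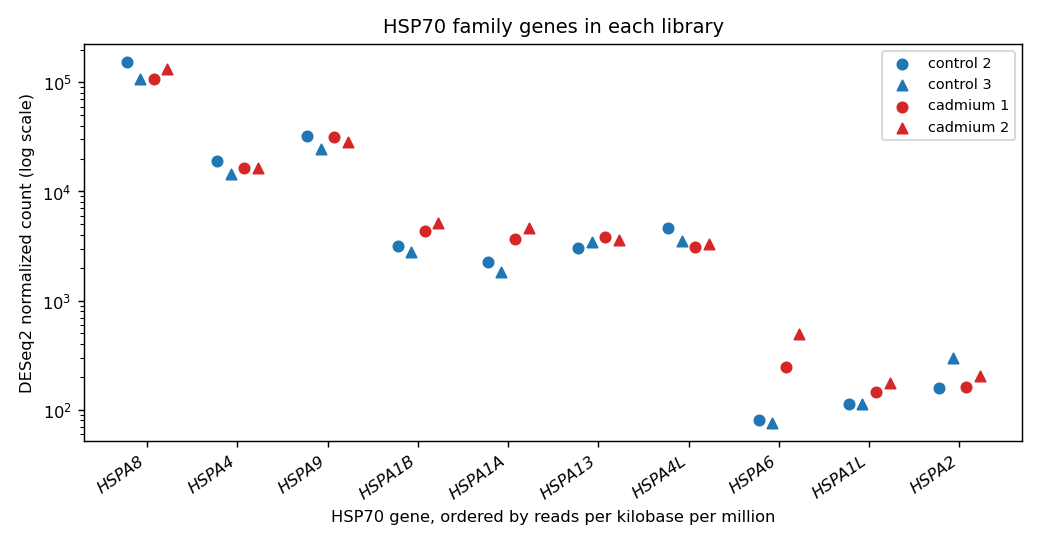
DESeq2 normalized counts (log axis) of the 10 HSP70 genes in 2 control (blue) and 2 cadmium (red) libraries, 1 symbol per library. The red symbols lie above the blue ones for HSPA6, HSPA1A, HSPA1B, HSPA1L and HSPA13, and below them for HSPA4L.

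HSPA6 (ENSG00000173110, chr1:161524540-161526894, plus strand, hg38), a single-exon gene, encodes a strictly stress-inducible cytosolic HSP70 that is nearly silent in unstressed cells. The 250 bases before its start are shown since it had the largest change of the family. They come from the RefSeq table for GRCh38.p14, at chr1:161524290-161524539 on the plus strand, and run 5′ to 3′ up to the base before the start. Capitals mark pairs of inverted heat shock units (GAANNTTC or TTCNNGAA), including a run of 3 units.
HSPA6 upstream: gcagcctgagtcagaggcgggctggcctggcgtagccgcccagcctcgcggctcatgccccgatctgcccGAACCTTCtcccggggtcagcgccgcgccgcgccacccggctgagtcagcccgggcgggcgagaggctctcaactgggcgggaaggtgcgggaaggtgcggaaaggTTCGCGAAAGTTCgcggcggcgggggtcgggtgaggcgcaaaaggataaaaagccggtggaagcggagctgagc
Its normalized counts were 80.4 and 75.5 in the control libraries and 246 and 496 in the cadmium libraries. The controls were close to each other and both cadmium libraries lay far above them, though the cadmium libraries themselves differed by 1.01 on the log2 scale. The log2 fold change was 2.25 (SE 0.47, 95% interval 1.33 to 3.17, DESeq2 adjusted p = 6.69e-04). Each cadmium library exceeded each control, by 1.61 to 2.71 on the log2 scale. The call was lost without cadmium 2, at a log2 fold change of 1.65. The spread is then estimated from the control pair alone, which over all genes was the less even pair. The call was kept without cadmium 1 (2.66, close to the threshold), control 2 (2.29) or control 3 (2.19). The edgeR adjusted p was 0.620. HSPA6 stayed a low transcript, at 0.583 and 0.581 RPKM in control and 1.90 and 3.77 in cadmium libraries.

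HSPA1A (ENSG00000204389, chr6:31815543-31817946, plus strand) and HSPA1B (ENSG00000204388, chr6:31827738-31830254, plus strand) lie in the MHC region of chromosome 6. Each has a single exon and they encode nearly the same protein, the main heat-inducible cytosolic HSP70. Their upstream stretches are shown together to let the copies be compared, in the same direction and from the same RefSeq table, at chr6:31815293-31815542 for HSPA1A and chr6:31827488-31827737 for HSPA1B, with the pair of heat shock units in capitals.
HSPA1A upstream: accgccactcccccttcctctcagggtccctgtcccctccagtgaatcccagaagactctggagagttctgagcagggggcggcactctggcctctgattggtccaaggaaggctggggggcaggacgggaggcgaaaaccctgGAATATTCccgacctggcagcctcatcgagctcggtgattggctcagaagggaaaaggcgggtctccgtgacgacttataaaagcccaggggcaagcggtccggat
HSPA1B upstream: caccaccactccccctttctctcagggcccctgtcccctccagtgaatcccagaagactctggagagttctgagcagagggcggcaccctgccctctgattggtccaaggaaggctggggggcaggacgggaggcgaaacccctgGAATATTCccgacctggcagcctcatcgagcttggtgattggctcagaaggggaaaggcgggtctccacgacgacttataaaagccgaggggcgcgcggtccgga
Aligned over their promoter windows of 300 bases, the copies were identical in 277 of 301 columns (92.0%). Both hold the letters GAATATTC, at bases -106 to -99 and -105 to -98 before the start.

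HSPA1A had normalized counts of 2253 and 1812 in the control libraries and 3668 and 4669 in the cadmium libraries. The groups did not overlap, and the nearest libraries of the groups were 0.70 apart on the log2 scale. The log2 fold change was 1.04 (SE 0.29, 95% interval 0.47 to 1.61, DESeq2 adjusted p = 0.0473). The call did not hold when either cadmium library was left out, with log2 fold changes of 1.19 without cadmium 1 and 0.85 without cadmium 2. The spread is then estimated from the control pair alone. The call held without either control (1.20 without control 2, 0.88 without control 3). There the spread is estimated from the cadmium pair alone and the single control is assumed to vary like it. The edgeR adjusted p was 0.620.

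HSPA1B had normalized counts of 3137 and 2815 in control and 4362 and 5136 in cadmium libraries, again without overlap. Its log2 fold change was 0.67 (SE 0.26, 95% interval 0.16 to 1.19), a 1.60-fold difference with an unadjusted p of 0.00998 that did not pass the adjustment over all genes (DESeq2 adjusted p = 0.353). The log2 fold change of HSPA1B was 0.75 without control 2 and 0.59 without control 3. Whether HSPA1A and HSPA1B differed from each other in their change was not tested. HSPA1A made up 41.8% and 39.2% of the reads of the pair in control and 45.7% and 47.6% in cadmium libraries. With both genes summed as 1 row, the log2 fold change was 0.83 and the DESeq2 adjusted p was 0.142, so the HSPA1A call was not kept by the sum.

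HSPA1A and HSPA1B share most of their sequence, and reads that map to several places were not counted. Of 2255 windows of 150 bases along the HSPA1A gene model, 1566 (69.4%) were found again on the 24 chromosomes searched, in HSPA1B. Of the HSPA1B windows, 66.1% were found again in HSPA1A. Within the coding part the share was 87.9% for each. A further limit touches HSPA1B, since 920 of its exon bases (36.6%) also belong to ENSG00000285565, a gene model on the same strand that was listed at 0 reads in all libraries, and reads in both genes were dropped. Taken singly, this left 689 usable windows (30.6%) in HSPA1A and 559 (23.6%) in HSPA1B. Reads were paired, so a mate in a repeated window may have been placed through its partner, which was not examined. RPKM were also computed with the number of usable windows as the length, as if all counted reads came from them. HSPA1A was then at 55.8 and 47.6 in control and 97.1 and 121 in cadmium libraries. HSPA1B was at 95.8 and 91.2 against 142 and 164. The deposited counts may therefore understate the level of both copies, by an amount that was not measured. HSPA6 was less affected, with 19.8% of its windows found again in HSPA7 or an overlapping model. With HSPA6 and HSPA7 summed, the log2 fold change was 2.17 (DESeq2 adjusted p = 0.00103). Exons of other gene models also overlapped HSPA8, HSPA4L and HSPA9, where 75.2%, 91.7% and 94.7% of the windows were usable.

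HSPA1L (ENSG00000204390, chr6:31809619-31815283, minus strand), a relative best known from testis, starts next to HSPA1A and runs the other way. Its normalized counts were 113 in both controls and 144 and 175 in the cadmium libraries. The cadmium libraries were higher, but the log2 fold change of 0.50 (SE 0.41, 95% interval -0.30 to 1.31) did not pass the test (DESeq2 adjusted p = 0.984).

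Genes around these 3 also lay mostly above 0. Among the 40 nearest that averaged 100 or more normalized counts, between 31268749 and 32445046 on chromosome 6, the median log2 fold change was 0.29 and 33 of 40 lay above 0. HSPA1A exceeded all 40 of these neighbours, while 2 of 40 were at or above HSPA1B and 9 of 40 at or above HSPA1L. Relative to the median of the neighbours, HSPA1A was at 0.74, HSPA1B at 0.38 and HSPA1L at 0.21 on the log2 scale. HSPA6 on chromosome 1 had neighbours with a median of 0.01, and 0 of 40 were at or above it. The part of the regional shift in the change of HSPA1A, HSPA1B and HSPA1L was not tested.

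**Figure D2:**
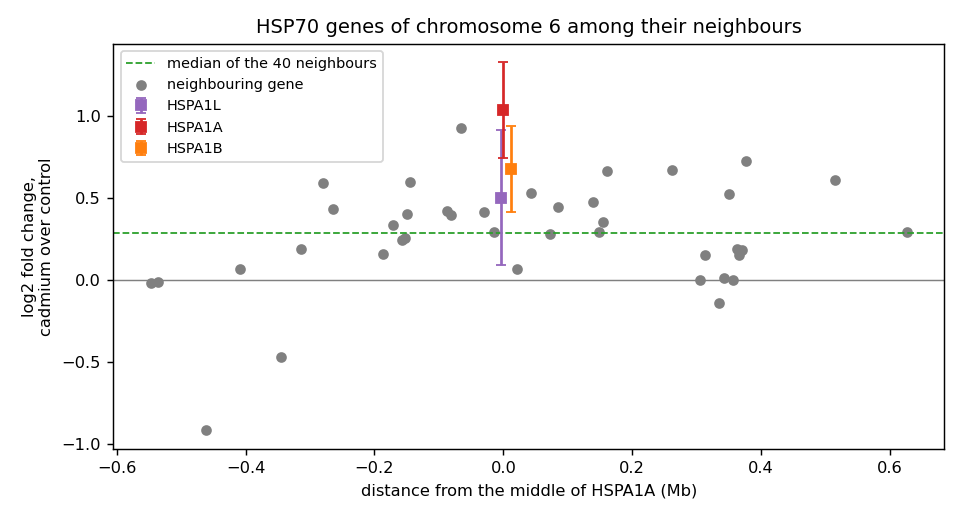
Log2 fold change (cadmium over control) against distance from the middle of HSPA1A in Mb, with 40 neighbouring genes in grey, the 3 HSP70 genes as squares with standard errors, and the neighbours' median of 0.29 as a dashed line. HSPA1A, at 1.04, lies above every neighbour plotted.

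HSPA8 (ENSG00000109971, chr11:123057489-123063230, minus strand) encodes HSC70, the constitutive cytosolic HSP70, which also uncoats clathrin vesicles and serves chaperone-mediated autophagy. Its normalized counts were 153597 and 107568 in control and 108014 and 132889 in cadmium libraries. The groups overlapped, and the controls stood further apart than the group means. The log2 fold change was -0.12 (SE 0.30, 95% interval -0.71 to 0.48, DESeq2 adjusted p = 1.000). The sign rests on single libraries, at 0.16 without control 2, 0.02 without cadmium 1 and -0.36 without control 3. Its 17 pseudogenes in the table took few reads, 0.0468% to 0.0676% of the HSPA8 count.

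HSPA2 (ENSG00000126803, chr14:64535905-64546173, plus strand), needed for sperm development, had normalized counts of 159 and 298 in control and 162 and 202 in cadmium libraries. Control 3 alone was high, and without it the log2 fold change turned from -0.32 (SE 0.46, 95% interval -1.22 to 0.57) to 0.19.

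HSPA9 (ENSG00000113013, chr5:138553756-138575675, minus strand) encodes mortalin, the mitochondrial HSP70 that pulls imported proteins into the matrix. Normalized counts were 32474 and 24719 in control and 31407 and 28579 in cadmium libraries, and the cadmium libraries lay between the controls. The log2 fold change was 0.07 (SE 0.27, 95% interval -0.47 to 0.61), and it was -0.13 without control 3 and -0.01 without cadmium 1. HSPA13 (ENSG00000155304, chr21:14371115-14383484, minus strand), a microsomal member that lacks the usual substrate-binding domain, had 3041 and 3432 normalized counts in control and 3842 and 3574 in cadmium libraries. The cadmium libraries were just above the controls (nearest libraries 0.06 apart on the log2 scale), and the log2 fold change of 0.20 (SE 0.25, 95% interval -0.30 to 0.69) did not pass.

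HSPA4 (ENSG00000170606, chr5:133052013-133106449, plus strand) and HSPA4L (ENSG00000164070, chr4:127781821-127840733, plus strand) are HSP110-type members that act mainly as nucleotide exchange factors for other HSP70 proteins. HSPA4 had normalized counts of 18986 and 14551 in control and 16534 and 16359 in cadmium libraries, both cadmium values lying between the controls. Its log2 fold change was -0.03 (SE 0.27, 95% interval -0.56 to 0.50), and it was 0.17 without control 2. HSPA4L, at 4613 and 3516 in control and 3125 and 3309 in cadmium libraries, was the single member with both cadmium libraries below both controls. The log2 fold change was -0.34 (SE 0.28, 95% interval -0.88 to 0.21, DESeq2 adjusted p = 0.988), and it was -0.53 without control 3. The intervals of the 7 members other than HSPA6, HSPA1A and HSPA1B include 0 and reach 0.56 or more in size in at least 1 direction, so differences inside these intervals could not be told from none with these libraries.

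**Figure D3:**
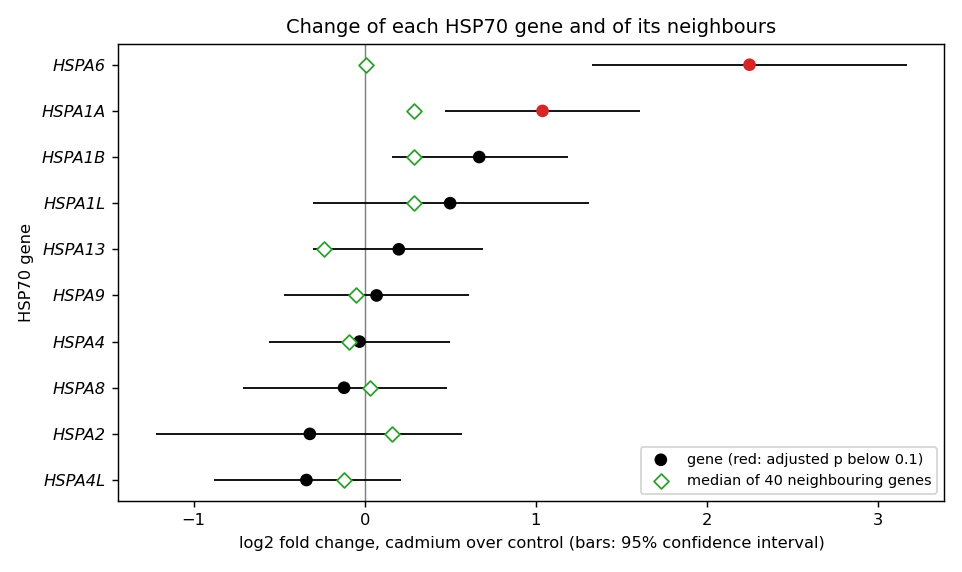
Log2 fold change (cadmium over control) of each HSP70 gene with its 95% confidence interval (red points passed the DESeq2 adjusted p of 0.1), beside the median of its 40 neighbouring genes (green diamonds). HSPA6 at 2.25 and HSPA1A at 1.04 are the red points, and the neighbours of the chromosome 6 genes sit at 0.29.

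**Figure D4:**
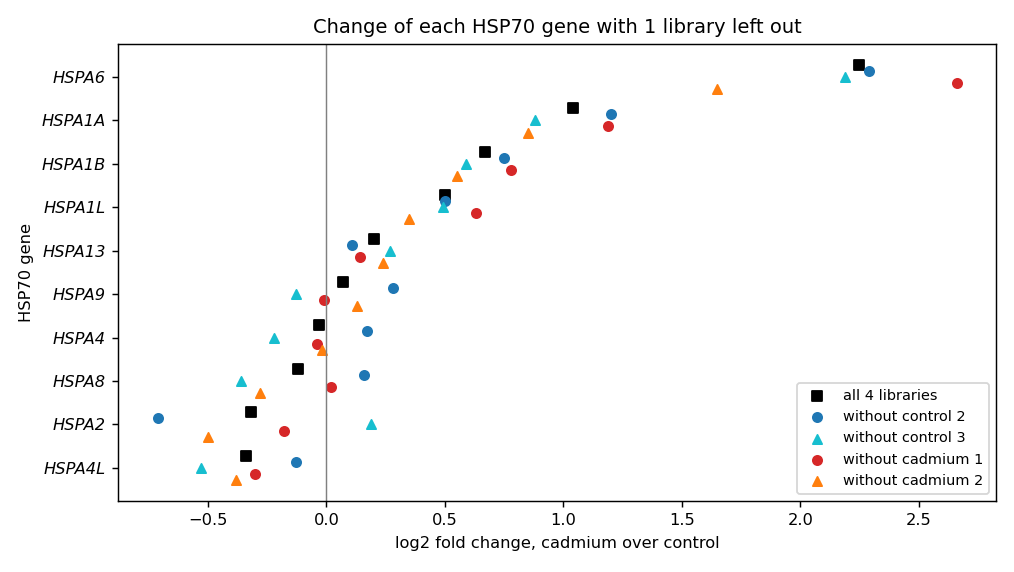
Log2 fold change (cadmium over control) of each HSP70 gene with all 4 libraries (black squares) and with each library left out (coloured symbols). HSPA6, HSPA1A, HSPA1B, HSPA1L and HSPA13 stayed above 0 and HSPA4L below 0 in every setting, whereas HSPA2, HSPA4, HSPA8 and HSPA9 crossed 0.

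Per length, HSPA8 dominated the family. Its level was 541 and 402 RPKM in control and 406 and 490 in cadmium libraries, 66.7% to 75.1% of the summed level of the 10 members. HSPA4 (51.9 to 63.9 RPKM over the 4 libraries) and HSPA9 (45.8 to 58.6) followed with overlapping ranges. HSPA1B (20.2 to 36.5), HSPA1A (13.6 to 34.8) and HSPA13 (12.5 to 16.9) came next, then HSPA4L (4.98 to 6.88). Pooled over the 4 libraries, HSPA1A overlapped both HSPA1B and HSPA13. Within the cadmium libraries HSPA1A (27.8 and 34.8) lay above HSPA13 (16.9 and 15.4). Within the controls HSPA1B (21.3 and 20.2) lay above HSPA1A (16.0 and 13.6). HSPA6, HSPA1L and HSPA2 were the lowest, at 0.493 to 3.77 RPKM, and their ranges pooled over the 4 libraries overlapped. Within the cadmium libraries they were separated, with HSPA6 at 1.90 and 3.77, HSPA1L at 0.953 and 1.13 and HSPA2 at 0.538 and 0.658. In the controls HSPA6 was at 0.583 and 0.581, HSPA1L at 0.696 and 0.739 and HSPA2 at 0.493 and 0.980. HSPA1A and HSPA1B may be placed too low in this order, given the repeated windows described above. The levels of HSPA8, HSPA4L and HSPA9 may also be understated, given the overlaps with other gene models. HSPA1A made up 2.22% and 2.45% of the family level in control and 4.57% and 4.98% in cadmium libraries, and HSPA6 was at 0.0810% and 0.104% against 0.313% and 0.540%. The summed level, 720 and 556 RPKM in control and 609 and 698 in cadmium libraries, overlapped between the groups.

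The promoter windows of all 10 members (12 RefSeq windows of 300 bases, from 250 before to 50 after each start) were searched on both strands for 3 consecutive heat shock units (GAANNTTCNNGAA or TTCNNGAANNTTC), which 172 of 35116 promoters (0.490%) hold. HSPA6 had 1 such element, TTCGCGAAAGTTC, at bases -74 to -62. HSPA8, whose libraries overlapped between the groups, had 2, GAAAGTTCCAGAA at -230 to -218 and TTCTGGAAGGTTC at -55 to -43. All 250 bases before the HSPA8 start used here lie in an annotated HSPA8 exon, so these positions depend on the start chosen. The same holds for HSPA9 and its own exon. HSPA1A and HSPA1B held a pair of units, a looser motif that overlaps the first and is found in 13.5% of promoters, as did windows of HSPA6, HSPA8, HSPA1L, HSPA4L and HSPA9. The HSPA1L and HSPA1A windows overlap on opposite strands, and their GAATATTC is the same stretch of the chromosome. The core of the metal response element, the site of the zinc-sensing factor MTF1 (TGCACNC or TGCGCNC and the reverse complements GNGTGCA and GNGCGCA), is in 29.6% of promoters and was found among the members in HSPA4L windows alone, at -42 to -36 and, from another start, at -50 to -44. A TATA box (TATAAA or TTTATA), found in 11.5% of promoters, lay at -30 to -25 in HSPA1A, -29 to -24 in HSPA1B, -235 to -230 in HSPA1L and -89 to -84 in an HSPA4L window. The HSPA1L match is the HSPA1A one read on the other strand. These matches are descriptions of letters, not of bound sites.

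Among 7 other HSP70 relatives, 0 passed the test in either direction, where 0.601% of all genes tested were called higher and 0.535% lower. Their median log2 fold change was -0.08. HSPA5, the HSP70 of the endoplasmic reticulum, had normalized counts of 46998 and 50202 in control and 55220 and 48115 in cadmium libraries (log2 fold change 0.09), and its exchange factor HYOU1 was at -0.16. HSPH1, an HSP110 protein, was at 0.08, HSPA14 at -0.08 and HSPA12B at -0.20. HSPA12A, a distant relative, had 1283 and 543 in control and 325 and 393 in cadmium libraries, with both cadmium libraries lower. Its log2 fold change was -1.35 (SE 0.46), which did not pass (DESeq2 adjusted p = 0.189). HSPA7, the near copy of HSPA6, had 6 and 12 reads in control and 15 and 26 in cadmium libraries and a log2 fold change of 1.14 (SE 1.08).

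No listed partner of the HSP70 cycle passed the test, where 0.601% of all genes tested were called higher and 0.535% lower. At that share, counts of 0 are usual in lists of this size and say little of the partners. Of 40 J-domain co-chaperones 0 were called, with 21 above 0 and 19 below and a median of 0.01. DNAJC24 was at 0.65, with both cadmium libraries above both controls, and DNAJC27 was at -0.50, with both below, and neither passed. Of 10 nucleotide exchange factors 0 were called (median 0.06), with BAG6, itself among the chromosome 6 neighbours of HSPA1A, at 0.34, BAG5 at 0.34 and BAG1 at -0.31. Of 9 partners and adaptors 0 were called (median -0.00), with STIP1, which links HSP70 to HSP90, at -0.40, the ubiquitin ligase STUB1 at -0.20 and LAMP2, the lysosomal receptor of chaperone-mediated autophagy, at 0.22.

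HSF1, the master factor of the heat shock response, had normalized counts of 7931 and 6116 in control and 6415 and 6638 in cadmium libraries, with overlap (log2 fold change -0.11), and HSF2 was at -0.16. HSF4 was at 0.57 (SE 0.46). Of 6 heat shock factor genes 5 passed the filter and 0 were called. Among 20 other targets of heat shock factors, some also in the lists above (such as HSPH1 and STIP1), 19 passed the filter. Of these, 0 were called higher and 1 lower, with a median of 0.03. Of all genes tested, 0.601% were called higher and 0.535% lower. The called gene was HSPB1, a small heat shock protein, at 23202 and 15461 in control and 8744 and 9358 in cadmium libraries. Its log2 fold change was -1.09 (SE 0.31, DESeq2 adjusted p = 0.0452), opposite in sign to HSPA6 and HSPA1A. The edgeR adjusted p was 0.620. HSPB1 lies on chromosome 7, and the part of its region in this change was not tested. P4HA2 was at -0.57 and HSPB8 at -0.80, and neither passed.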

How the data were processed

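RNA-seq of total RNA from MDA-MB-231 cells was analysed, with 2 control and 2 cadmium-resistant libraries. As the methods and the header of the table state, the authors trimmed adaptors, used HISAT2 to align to hg38 and ran featureCounts 2.0.1 over the exons of Ensembl annotation 105. The deposited table holds unnormalized counts of reads for each gene. The recorded command gave no further options. By default, strand was not used, a read placed at more than 1 locus or lying in more than 1 gene was left out, and each mate counted as a read. The command names the control alignments A and B, whereas the columns are numbered 2 and 3 and the labels 1 and 2. The control columns were therefore given a group and no sample.

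Counts were fitted over the whole table with DESeq2 1.42.0 in R 4.3.3 (Wald test, two-sided, adjusted p below 0.1, as the study used DESeq2). Genes with a mean normalized count below 7.69 were not adjusted. Alternatives were edgeR 4.0.16 (quasi-likelihood, TMM), limma 3.58.1 with voom weights, DESeq2 with upper-quartile or TMM factors, no filter, at least 10 counts in 2 libraries, halved counts, a gene-length trend removed, a threshold of 0.05, summed copies and leaving out each library. The fits were tested on simulated data. Symbols matched 61369 of 61541 identifiers. Gene ends of all 10 members were the same in GENCODE v44. The 24 chromosomes of its genome (autosomes, X and Y) were searched for 150-base windows, and alternate contigs were not. Partner lists, neighbours and named genes (all members and relatives, HSF1, HSF2, and per further list called genes or those with the lowest p until 3 were named) followed written rules, and members and lists were chosen with earlier results of these data known. The pair of heat shock units was added after the values were seen. Protein sequences were not used here, and 2 genes of these lists are not reported here by name.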

Additional observations from a re-analysis of the deposited data

How the results depend on the processing

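The directions of HSPA6, HSPA1A, HSPA1B, HSPA1L, HSPA13 (higher) and HSPA4L (lower) held under every alternative run. HSPA6 ranged from 1.65 to 2.66 on the log2 scale and HSPA1A from 0.74 (minus the median of its neighbours) to 1.20. Both edgeR and limma-voom called 0 members higher, where DESeq2 called 2, and 0 of all genes higher or lower, where DESeq2 called 119 and 106. When 1 library was left out, the lone library of a group was assumed to vary like the others. Members called higher then numbered 0 to 3 and members called lower 0 to 2, while all genes called higher numbered 9 to 2678 and all genes called lower 5 to 3511, the low counts without a cadmium library and the high ones without a control. In these settings the log2 fold change of HSPA2 ranged from -0.71 to 0.19, HSPA4 from -0.22 to 0.17, HSPA8 from -0.36 to 0.16 and HSPA9 from -0.13 to 0.28, each changing sign. Upper-quartile factors turned HSPA4 to 0.03. TMM factors, the other filters, halved counts, the length trend and a threshold of 0.05 kept both calls. No paired analysis was possible because no control number in the table matches the numbering of the labels for certain, so no replicate block was fitted. Halving all counts, as each mate was counted as a read, left 85 genes called higher and 85 lower and moved the DESeq2 adjusted p of HSPA6 to 0.00383. With 2 libraries per group, both the spread between libraries and depth limit the precision.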
